A study of Mus musculus with 8 samples.

Results

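Macrophages with at least 1 unique molecular identifier (UMI, the tag that counts 1 captured mRNA molecule) of each of Trem2, Gpnmb and Ms4a7 were selected from single liver cells of mice with nonalcoholic steatohepatitis (NASH) and fibrosis. A cell was kept if it had more than 500 genes and under 25% mitochondrial UMIs, and it entered the selection, called the gated cells here, if it also had at most 1 UMI of Clec4f, at most 2 UMIs of Cxcl9 and Cxcl10 together, and 0 UMIs of Top2a, Cd3e and Cd79a. This gave 6560 of the 65518 kept cells of 6 NASH mice, or 10.0%, among 80474 kept cells of all 8 mice. The mice were wild-type C57BL/6. Control mice (n = 2) had a normal diet and drinking water, HFD+F+CCl4 mice (n = 3) had a high-fat diet, and WD+F+CCl4 mice (n = 3) had a western diet, which holds more cholesterol than the high-fat diet. Both NASH groups also drank a fructose solution that held glucose and were injected intraperitoneally with CCl4, a liver toxin, once a week for 16 weeks, so that no group separates the diet from fructose or from CCl4. The labels and methods read here state no age or sex. Each library came from 1 liver, dissociated whole with enzymes after perfusion of the heart, and was made with the 10x Genomics Chromium 3' chemistry. The libraries held between 46275590 and 64855024 UMIs in the NASH mice, against 36699315 in control replicate 1 and 6135827 in control replicate 2.

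Macrophages that take up lipid in fatty tissue and in scarred liver are known as lipid-associated macrophages. Trem2 is a surface receptor that binds lipids and lipoproteins and signals through the adaptor Tyrobp and the kinase Syk. Gpnmb is a glycoprotein of lysosomes and phagosomes that rises in lipid-loaded phagocytes, and Ms4a7 is a membrane protein of macrophages other than the resident Kupffer cells of the liver. Such cells are known to come largely from blood monocytes and to carry much lysosomal enzyme, lipid-binding protein and Spp1 (osteopontin), a secreted phosphoprotein of the matrix. In the files' build, GRCm38, Trem2 lies on chromosome 17 from 48346401 to 48354147, Gpnmb on chromosome 6 from 49036546 to 49070929, Ms4a7 on chromosome 19 from 11321039 to 11336146, Spp1 on chromosome 5 from 104435118 to 104441050 and C3ar1, the receptor of complement C3a, on chromosome 6 from 122847138 to 122856161, all as protein-coding genes.

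The gated cells had a median of 7420.5 UMIs, 2616 genes and 1.13% mitochondrial UMIs. They held a median of 5 UMIs of Trem2, 6 of Gpnmb and 4 of Ms4a7, and these values chose the cells. Just inside the limits were 871 cells with exactly 1 UMI of Trem2, 1213 with exactly 1 of Gpnmb and 1358 with exactly 1 of Ms4a7. Just outside, 1056 cells of the NASH mice failed on Trem2 alone, 2790 on Gpnmb alone and 2860 on Ms4a7 alone. Free RNA in the droplets can give such single UMIs. Among 3604 T cells of the same mice, with a median of 2769.5 UMIs, 6.05% had a UMI of Trem2, 11.5% of Gpnmb and 3.88% of Ms4a7, and 0.305% had all 3. All of these T cells had a UMI of Cd3d, Cd3e and Cd3g, and none had one of Csf1r, which 97.5% of gated cells had. T cells without Csf1r may hold less macrophage RNA than T cells at large, so the shares of T cells given here may be low. Of the 8576 NASH cells with all 3 genes, 936 failed only on Top2a, a gene of dividing cells, 336 only on Cxcl9 and Cxcl10, 227 only on Clec4f, 141 only on Cd3e and 101 only on Cd79a. Between libraries, 732 kept barcodes recurred. The barcode of 112 gated cells was also kept in another library, and 5 barcodes of gated cells also belonged to gated cells of another library.

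The label was checked against markers that the selection did not use. Spp1 was at 1721 ± 830 CPM, the UMIs of a gene per 1000000 UMIs summed over the gated cells of a mouse (mean ± SD, n = 6 mice), and had a UMI in 64.4% of gated cells, against 11.6% of the T cells. For C3ar1 the level was 548 ± 98.9 CPM, with a UMI in 89.1% of gated cells and 3.30% of T cells. Apoe, an apolipoprotein that carries lipid out of cells, was the most abundant gene outside the ribosomal and mitochondrial ones, at 33481 ± 10139 CPM. The other most abundant genes included Lyz2 (lysozyme), at 10471 ± 1063 CPM, the cathepsins Ctsb, Ctsd and Ctss, the ferritin chains Fth1 and Ftl1, the MHC class II genes Cd74, H2-Aa and H2-Ab1, and Lgals3 and Tyrobp. Genes of Kupffer cell identity were not uniformly low. Timd4 was at 1.08 ± 1.67 CPM, Marco at 25.3 ± 35.1 CPM, Vsig4 at 41.5 ± 46.4 CPM and Clec4f, which the rule limits, at 6.31 ± 6.28 CPM, whereas Cd5l stood at 269 ± 243 CPM. Adgre1, which encodes the macrophage antigen F4/80, was the most abundant of the 17 members of that list, at 414 ± 98.1 CPM, and had a UMI in 85.1% of gated cells and 5.41% of T cells. Id3, at 314 ± 80.7 CPM, and Slc40a1, the iron exporter, at 122 ± 101 CPM, were the other members above 100 CPM, and 5 members, C6, Cd163, Kcna2, Timd4 and Xlr, were under 10 CPM. The list summed to 2397, 1422 and 1086 CPM in HFD+F+CCl4 mice and to 942, 769 and 2099.7 CPM in WD+F+CCl4 mice.

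Control mice had almost no cells that met the rule. In HFD+F+CCl4 mice they were 15.5%, 13.2% and 4.44% of the kept cells in replicates 1, 2 and 3, and in WD+F+CCl4 mice 11.2%, 6.26% and 9.04%. Control replicate 1 had 1 gated cell among 10788 kept cells and control replicate 2 had 0 of 4168, which allows a share of up to 0.072% at 3 cells. The rule names the NASH mice, so no test of NASH against control was made. The groups of NASH mice overlapped: the share was 8.82% ± 2.46 in WD+F+CCl4 mice and 11.1% ± 5.85 in HFD+F+CCl4 mice (SD, n = 3 each), and the difference of -2.24 percentage points gave p = 0.6 in the exact two-sided permutation test, whose smallest p is 0.1. Among the kept cells with a UMI of Ms4a7 that met the same limits, the gated cells were 56.2%, 61.4% and 32.0% in HFD+F+CCl4 mice and 67.2%, 34.5% and 48.2% in WD+F+CCl4 mice (exact two-sided permutation test, p = 1). Control replicate 1 had 18 such cells, 1 of them gated, and control replicate 2 had 3. Cells with at least 2 UMIs of Clec4f and 0 of Top2a, Cd3e and Cd79a numbered 5 and 1 in these mice. Shares of dissociated cells depend on how well each cell type survived dissociation and removal of dead cells, which was not tested.

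**Figure D1:**
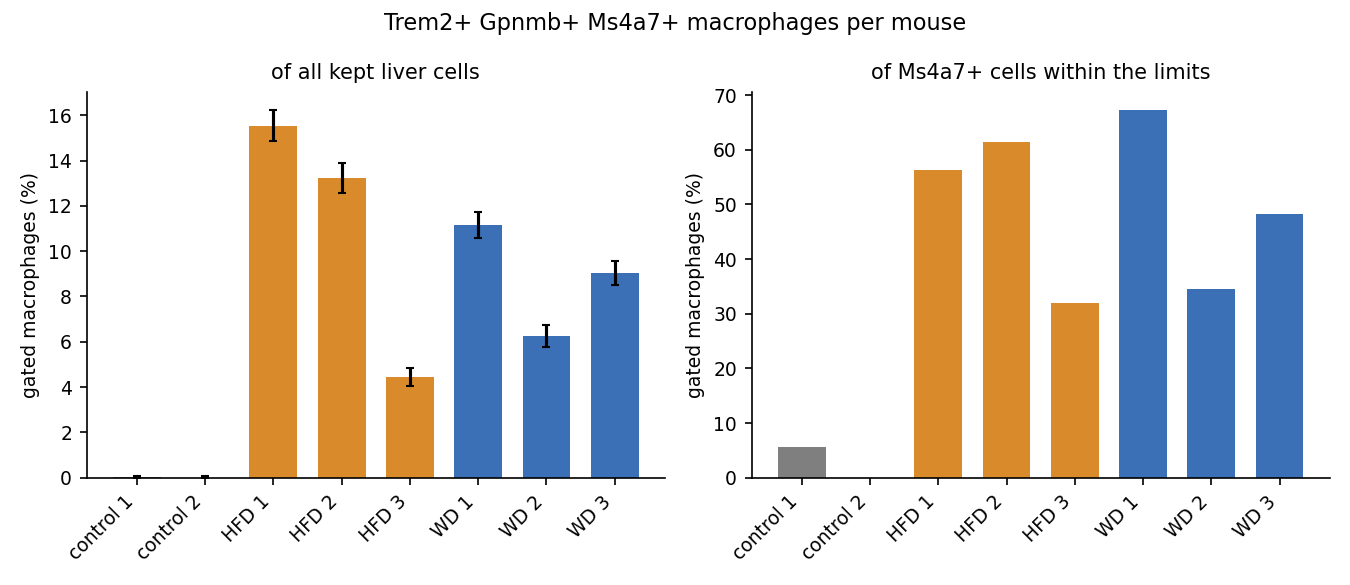
Share of gated cells (percent, bars) in each mouse, of all kept liver cells with the exact 95% binomial interval (left) and of Ms4a7+ cells within the same limits (right). The 6 NASH mice lie between 4.44% and 15.5% of kept cells and both diets overlap, while the 2 control mice are at or near 0 on the left, and control replicate 1 is at 5.56% of only 18 cells on the right.

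The 3 required genes chose the cells, so their levels over whole libraries are given as a description. Trem2 was at 3.71 and 3.77 CPM of all kept cells in the control mice, at 386, 378 and 110 CPM in HFD+F+CCl4 replicates 1, 2 and 3, and at 259, 196 and 329 CPM in WD+F+CCl4 mice. For Gpnmb the control mice had 9.04 and 7.54 CPM, HFD+F+CCl4 mice 1012, 628 and 161 CPM, and WD+F+CCl4 mice 492, 173 and 509 CPM. Ms4a7 was at 1.76 and 1.13 CPM in the control mice and between 121 and 354 CPM in the NASH mice. Spp1, which epithelial cells of the bile ducts also make, was at 180 ± 60.4 CPM in control, 757 ± 468 CPM in HFD+F+CCl4 and 883 ± 203 CPM in WD+F+CCl4 mice. These levels mix cell numbers with RNA per cell, and the 2 cannot be told apart in them.

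To see which genes go with Trem2 and Gpnmb, the gated cells were set beside cells of the same mice that had Ms4a7 and met the same limits but had 0 UMIs of Trem2 and of Gpnmb. These Ms4a7+ Trem2- Gpnmb- cells numbered 2308, between 211 and 539 a mouse. They were shallower, with median UMIs between 2351 and 4367 a mouse against 6429.5 to 8098 in the gated cells. They also carried genes of dendritic cells, so they are not one kind of macrophage. Of 8884 genes, 226 (2.54%) were higher in the gated cells and 474 (5.34%) lower, meaning the same direction in all 6 mice and a mean difference of at least 1 on the log2(CPM + 1) scale. Since the cells were chosen on measured genes, this is a description without a test, and the 9 genes of the rule were left out. Restricting both kinds to cells of 4000 to 12000 UMIs gave 238 higher and 410 lower genes. A gene entered if it had at least 10 CPM in either kind, so that one which passed only through the kind where it is high had to differ. Gene lists are therefore counted over members with at least 10 CPM in both kinds, of which all genes numbered 7885, with 2.08% higher, 3.11% lower and a median of -0.05.

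The largest positive differences were those of Syngr1, a vesicle membrane protein, and of Atp6v0d2, a subunit of the proton pump of lysosomes. Syngr1 was at 138, 101 and 44.8 CPM in gated cells of HFD+F+CCl4 replicates 1, 2 and 3 and at 80.6, 51.2 and 73.5 CPM in WD+F+CCl4 mice. In the Trem2- Gpnmb- cells of the same mice Syngr1 did not exceed 14.9 CPM, and the mean difference was 4.21 ± 0.86 on the log2 scale (SD, n = 6). Atp6v0d2 differed by 3.64 ± 0.98, Bhlhe41, a transcriptional repressor, by 3.22 ± 0.84, Pf4, a chemokine of platelets and macrophages, by 3.07 ± 0.68, Slc6a8, the creatine transporter, by 3.01 ± 0.54 and Mmp12, the elastase of macrophages, by 3.00 ± 1.28. Further genes of this group were Folr2 (folate receptor) with 2.93 ± 0.67, F7 (coagulation factor VII) with 2.71 ± 0.89, Fabp7 (a fatty acid binding protein) with 2.69 ± 0.97 and Tmem171 with 2.69 ± 1.26. On the other side stood Ccr7, the homing receptor of migrating dendritic cells, with -3.58 ± 0.87, Klrd1, a receptor chain of natural killer cells, with -3.08 ± 0.69, Apol7c with -3.0 ± 1.54, Siglech, a receptor of plasmacytoid dendritic cells, with -2.93 ± 1.06, the chemokine Ccl22 with -2.91 ± 2.33 and Ctla2a with -2.90 ± 0.94. Of these named genes only Pf4, Mmp12 and F7 had at least 10 CPM in both kinds; the other 7 higher genes passed only through the gated cells and all 6 lower genes only through the Trem2- Gpnmb- cells.

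Of 23 such members of the lipid-associated macrophage signature outside the rule, 18 were higher in the gated cells, against 2.08% of all genes, and none was lower, with a median difference of 1.59. Atp6v0d2, Ctsk and Syngr1 passed only through the gated cells. Spp1 was at 1826, 1236 and 718 CPM in gated cells of HFD+F+CCl4 mice and at 3171, 1892 and 1481 CPM in WD+F+CCl4 mice. In the Trem2- Gpnmb- cells it was at 815, 319 and 99.0 CPM and at 310, 268 and 208 CPM, so that the gated cells were above the other cells in each mouse, by 2.49 ± 0.79 on the log2 scale. C3ar1 differed by 2.16 ± 0.35, with 548 ± 98.9 CPM against 128 ± 51.2 CPM. Lpl, the lipase that frees fatty acids from lipoproteins, was at 1443 ± 340 CPM against 272 ± 77.3 CPM, and Fabp5, a carrier of fatty acids, at 1469.9 ± 366 CPM against 282 ± 67.5 CPM. The 5 members not among the higher genes were Acp5, Anxa2, Cd9, Fabp4 and Itgax. Cd9, a tetraspanin often used to mark such cells, was at 226 ± 109 CPM in gated cells and 290.04 ± 114 CPM in the others, a mean difference of -0.38 ± 0.25.

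**Figure D2:**
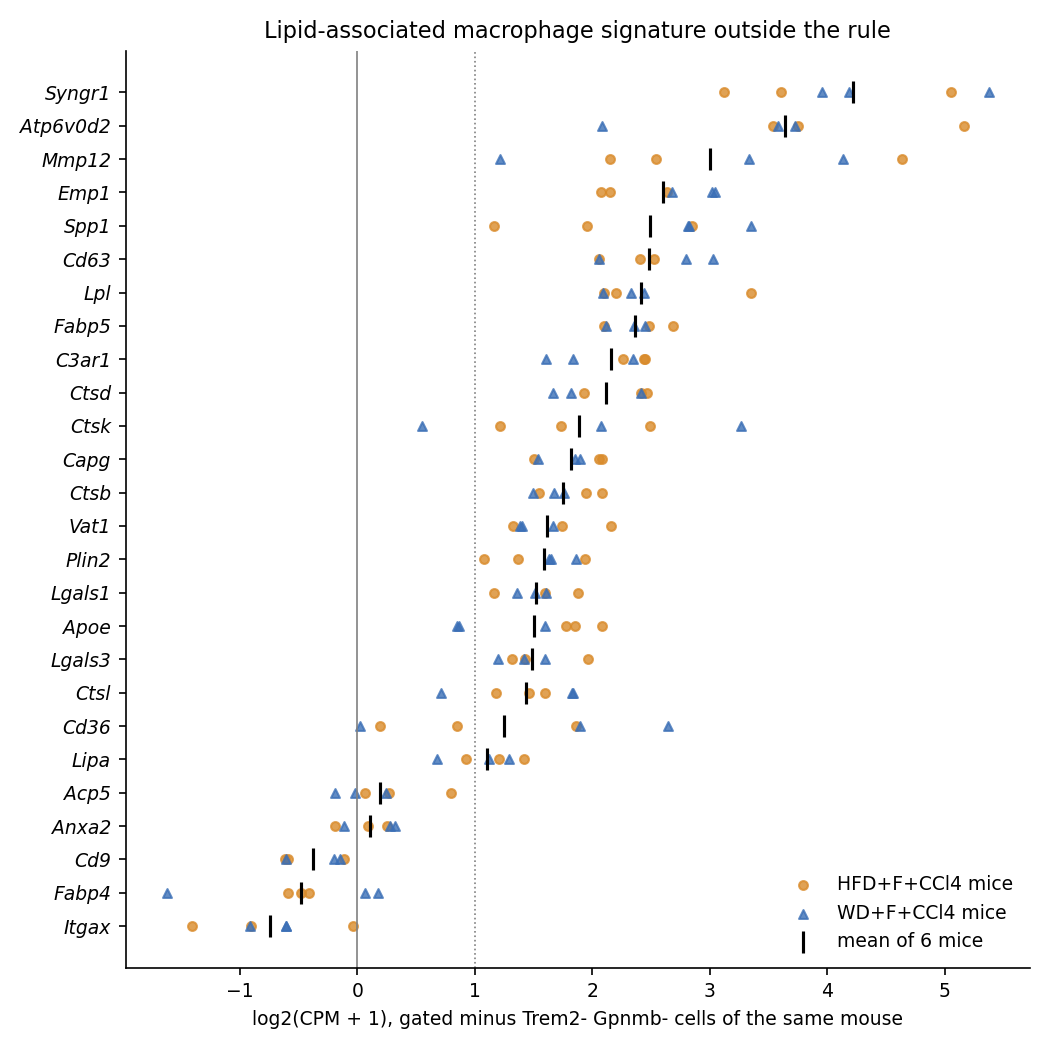
Difference of each signature gene between gated cells and Trem2- Gpnmb- cells of the same mouse, in log2(CPM + 1), with a point per mouse and a bar at the mean of 6 mice; the dotted line marks 1. Syngr1, at a mean of 4.21, is farthest to the right, and Acp5, Anxa2, Cd9, Fabp4 and Itgax scatter around 0 or below.

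Lysosomal enzymes were abundant in the gated cells. Of 39 lysosomal hydrolases and membrane proteins, 11 were higher, against 2.08% of all genes, and none lower (median 0.74), and Ctsk passed only through the gated cells. Ctsd, the aspartic protease cathepsin D, was at 7139.8, 5351 and 2807 CPM in gated cells of HFD+F+CCl4 mice and at 5809.9, 4066 and 5125 CPM in WD+F+CCl4 mice, against 1154 ± 321 CPM in the Trem2- Gpnmb- cells. Ctsb, cathepsin B, was at 8768 ± 1793 CPM against 2585 ± 385 CPM. Lgmn, the protease legumain, was at 1299 ± 234 CPM against 474 ± 103 CPM, and Gla, which removes galactose from glycolipids, at 55.5 ± 13.1 CPM against 16.8 ± 7.58 CPM. Lipa, the acid lipase that splits cholesterol esters, differed by 1.11 ± 0.27. Of 15 subunits of the V-ATPase, the pump that acidifies lysosomes, Atp6v0a1, Atp6v1a and Atp6v1c1 were higher and none was lower (median 0.42). None of 13 genes of Trem2 signalling was higher or lower (median -0.06), and the adaptor Tyrobp was at 2949 ± 163 CPM against 2769.5 ± 484 CPM.

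Genes of lysosomal proteins are known to share CACGTG, the E-box that factors of the MiT/TFE family such as Tfeb and Mitf can bind. In RefSeq promoters of GRCm38.p6, 250 bases before each annotated start, CACGTG was found in 10 of 36 promoters of the lysosomal list (27.8%, from 31 of its 40 genes that matched), in 9.29% of the 226 promoters of the genes higher than in Trem2- Gpnmb- cells (172 of 226 genes matched) and in 6.02% of all 32851 promoters. The letters read the same on both strands. Of the other letters searched on both strands, TCATGTG was in 11.1% of lysosomal and 3.25% of all promoters, TCACATG in 11.1% and 3.50%, TGACTCA in 11.1% and 4.46%, and GAGGAAGT in 2.78% and 2.44%; TCATGTG and TCACATG overlap within TCATGTGA. In the 28 promoters of the lipid-associated macrophage signature CACGTG was in 7.14%, near the share of all promoters, and TGACTCA in 17.9%. TGACTCA was also in 8.85% of the promoters of the higher genes. A match is a run of letters and no evidence of binding. The 3 promoters below are shown because their genes were both on the lysosomal list and higher in the gated cells and held CACGTG, printed in capitals. Ctsd has it 245 and 98 bases before the start (chr7:142387828-142388077, minus strand), Gla 227 and 194 bases before (chrX:134601006-134601255, minus strand) and Lgmn 49 bases before (chr12:102439093-102439342, minus strand), and Ctsl, with 1 match, was the other gene of which this held.
Ctsd: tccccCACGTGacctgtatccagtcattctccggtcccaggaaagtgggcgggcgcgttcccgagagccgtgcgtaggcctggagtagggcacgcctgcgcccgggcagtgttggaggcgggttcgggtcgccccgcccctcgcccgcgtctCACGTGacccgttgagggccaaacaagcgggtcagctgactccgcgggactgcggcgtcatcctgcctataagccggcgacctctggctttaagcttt
Gla: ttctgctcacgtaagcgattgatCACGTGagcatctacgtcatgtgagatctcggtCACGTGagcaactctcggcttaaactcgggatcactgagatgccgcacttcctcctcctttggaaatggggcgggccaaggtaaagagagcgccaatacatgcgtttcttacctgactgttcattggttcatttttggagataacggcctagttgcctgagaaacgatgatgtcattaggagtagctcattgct
Lgmn: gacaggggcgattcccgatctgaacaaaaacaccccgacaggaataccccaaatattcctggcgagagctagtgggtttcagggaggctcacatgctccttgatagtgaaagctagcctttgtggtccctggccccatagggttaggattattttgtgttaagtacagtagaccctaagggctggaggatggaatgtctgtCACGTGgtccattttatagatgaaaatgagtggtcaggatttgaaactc

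Genes of lipid uptake and storage were higher in 6 of 16 cases, against 2.08% of all genes, and lower in none, with a median of 0.84. Besides Lpl and Fabp5 these were Plin2, the coat protein of lipid droplets, at 1159 ± 439 CPM against 369 ± 85.1 CPM, the scavenger receptors Cd36 and Msr1, with differences of 1.24 ± 1.05 and 1.27 ± 0.38, and Mertk, a receptor for dying cells, with 1.53 ± 0.63. Of 14 cholesterol efflux and LXR target genes, Abca1, Apoe and Nceh1 were higher. None of 12 sterol synthesis genes was higher or lower. Among 16 matrix and fibrogenic genes, 7 were higher, including Spp1, Mmp12, Igf1 (difference 2.58 ± 0.57) and Thbs1, and Sparc was lower. Of 13 complement genes, the C1q chains C1qa, C1qb and C1qc, C3ar1 and Vsig4 were higher, with C1qb at 3131 ± 776 CPM against 1036 ± 322 CPM. None of the 18 monocyte genes was higher and 11 were lower, against 3.11% of all genes (median -1.21), among them Plac8, with -1.81 ± 0.71, and Ly6c2, with -1.02 ± 0.49, whereas Ccr2, the receptor that draws monocytes into tissue, differed by -0.13 ± 0.22. None of 7 MHC class II genes was higher or lower. All 8 dendritic cell genes were under 10 CPM in the gated cells and passed only through the Trem2- Gpnmb- cells, as did H2-Oa and H2-DMb2, so they are not counted. Members of a list named here beyond its 4 most abundant were chosen after their values were seen.

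Kupffer cells, taken as cells with at least 2 UMIs of Clec4f and 0 of Top2a, Cd3e and Cd79a, reached 20 cells in 3 mice only, HFD+F+CCl4 replicates 1 and 2 and WD+F+CCl4 replicate 3, with 209, 132 and 314 cells. Of 8803 genes, 172 (1.95%) were higher in the gated cells in all 3 mice and 423 (4.81%) lower. Of 12 genes of Kupffer cell identity with at least 10 CPM in both kinds, 9 were lower, with a median of -3.14, against 2.75% and -0.07 over the 7941 genes of that level, while C6, Cd163, Kcna2 and Timd4 passed only through the Kupffer cells. Kcna2, a potassium channel, differed by -5.85 ± 1.06 (SD, n = 3), the scavenger receptor Marco by -5.62 ± 1.00, complement C6 by -5.55 ± 1.01, the lectin Fcna by -5.37 ± 1.05, Timd4, a receptor for phosphatidylserine, by -5.35 ± 1.04 and the chemokine Cxcl13 by -5.31 ± 1.06. Fcrls, an Fc receptor-like scavenger receptor, was highest in the other direction with 2.76 ± 0.60, before Emp1 with 2.69 ± 0.80 and Rapsn with 2.66 ± 0.20. Dhrs9, Syngr1, Cbr2, Il7r, Cd93, Bhlhe41 and F7 followed, with differences from 2.58 to 2.36. Among the lower genes named, Marco alone had at least 10 CPM in both kinds, and among the higher genes Emp1, Syngr1, Cd93 and F7 had.

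Of 25 signature genes, again over members with at least 10 CPM in both kinds, 8 were higher in the gated cells than in Kupffer cells in the 3 mice (median 0.51), against 1.36% of all genes, and Mmp12 was lower, at 219 ± 144 CPM against 971 ± 630 CPM. Spp1 was at 1826, 1236 and 1481 CPM in gated cells against 1056, 411 and 115 CPM in Kupffer cells, and C3ar1 differed by 1.11 ± 0.10. Lpl was at 1564 ± 439 CPM against 1582 ± 559 CPM and Ctsd at 5872 ± 1104 CPM against 5468 ± 423 CPM, with no common direction among the mice. Of 39 lysosomal genes only Galns was higher, which is 2.56% and near the share of all genes. Class II genes were higher in 4 of 7 cases, with H2-Aa at 3304 ± 439 CPM against 1573 ± 581 CPM, and the chemokine receptors Ccr2 and Cx3cr1 differed by 2.07 ± 0.17 and 1.89 ± 0.26. Of 18 macrophage transcription factors, Pparg was higher and Nr1h3 and Tfec lower. This description and the one against Trem2- Gpnmb- cells share the gated cells and were not tested against each other.

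Macrophages with Ms4a7 and at least 3 UMIs of Cxcl9 and Cxcl10 together, chemokines that interferon induces, numbered 716 over the 6 mice. Of 8521 genes, 42 (0.493%) were higher in the gated cells and 118 (1.38%) lower. With at least 10 CPM in both kinds, interferon-stimulated genes were lower in 11 of 17 cases (median -1.25), against 0.981% of all genes. The largest negative differences were those of the related chemokine Cxcl11, with -3.78 ± 1.39, the protease inhibitors Serpina3g and Serpina3f, with -3.42 ± 0.81 and -3.02 ± 0.55, the nuclease Dnase1l3, with -3.10 ± 0.83, and the GTPases Gbp5 and Gbp2, with -3.08 ± 0.99 and -2.91 ± 0.57. Of these, Cxcl11, Gbp5 and Serpina3f were under 10 CPM in the gated cells and passed only through the Cxcl9 Cxcl10 macrophages. Signature genes were higher in 7 of 25 cases, against 0.318% of all genes, among them Syngr1 with 1.65 ± 0.39, Spp1 with 1.21 ± 0.52 and Fabp5 with 1.52 ± 0.52. Pmp22, a membrane protein, led this side with 2.16 ± 1.38, and Ngp, Atp6v0d2, Lonrf3, Slc6a8, Mmp12, Ahnak2, Bhlhe41 and Emp1 were the further genes, with differences from 2.10 to 1.62. Pmp22, Ngp, Lonrf3, Slc6a8, Ahnak2 and Bhlhe41 passed only through the gated cells. Ngp is a neutrophil granule gene, at 22.9 ± 34.2 CPM in gated cells.

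Clustering of the 6560 gated cells gave 10 groups, numbered from 0 by size and described by the genes that set them apart. Cluster 0 (1756 cells) was led by Il7r and Atp6v0d2, with Syngr1, Cd36 and Pf4 and the haemoglobin genes Hbb-bt, Hba-a1 and Hba-a2. Its cells had 1000.2 CPM of Trem2, 2905 CPM of Gpnmb and 2353 CPM of Lpl. Cluster 1 (1395 cells) was led by Cx3cr1, Tmem176b and Ccr2 with class II genes, and had 708 CPM of Trem2, 729 CPM of Gpnmb and 472 CPM of Spp1. Both occurred in every mouse, but in unequal parts. Cluster 2 (926 cells) carried Vcan, Ccl7, Ly6c2 and Chil3, genes of young monocytes, and 3358 CPM of Spp1. Cluster 5 (403 cells) carried the Kupffer identity genes Vsig4, Cd5l and Clec1b and Cd207 beside the cell cycle genes Ccnb2 and Birc5, although Top2a was 0 by rule.

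Several clusters were mostly 1 mouse. WD+F+CCl4 replicate 1 gave 82.9% of cluster 2, which made up 57.4% of its gated cells, against 15.4% in WD+F+CCl4 replicate 2 and at most 2.36% in the other mice. HFD+F+CCl4 replicate 1 gave 97.2% of cluster 3 (916 cells), led by Fosb, Dusp1 and Ppp1r15a with Hspa1a and Fos, which are immediate early and stress genes. HFD+F+CCl4 replicate 3 gave 63.0% of cluster 6 (289 cells), with Acod1, Clec4e and Il1rn, genes of activated macrophages. A cluster mostly of 1 mouse may be that library and not a state of the cells. In the principal components of the summed counts HFD+F+CCl4 replicate 1 stood apart, at -62.8 on the first, which held 46.9% of the variance, against -28.3 to 43.6 in the other mice. The summed level of 17 immediate early and heat shock genes was 4292 CPM in that mouse and 1413 to 1847 CPM in the other 5.

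**Figure D3:**
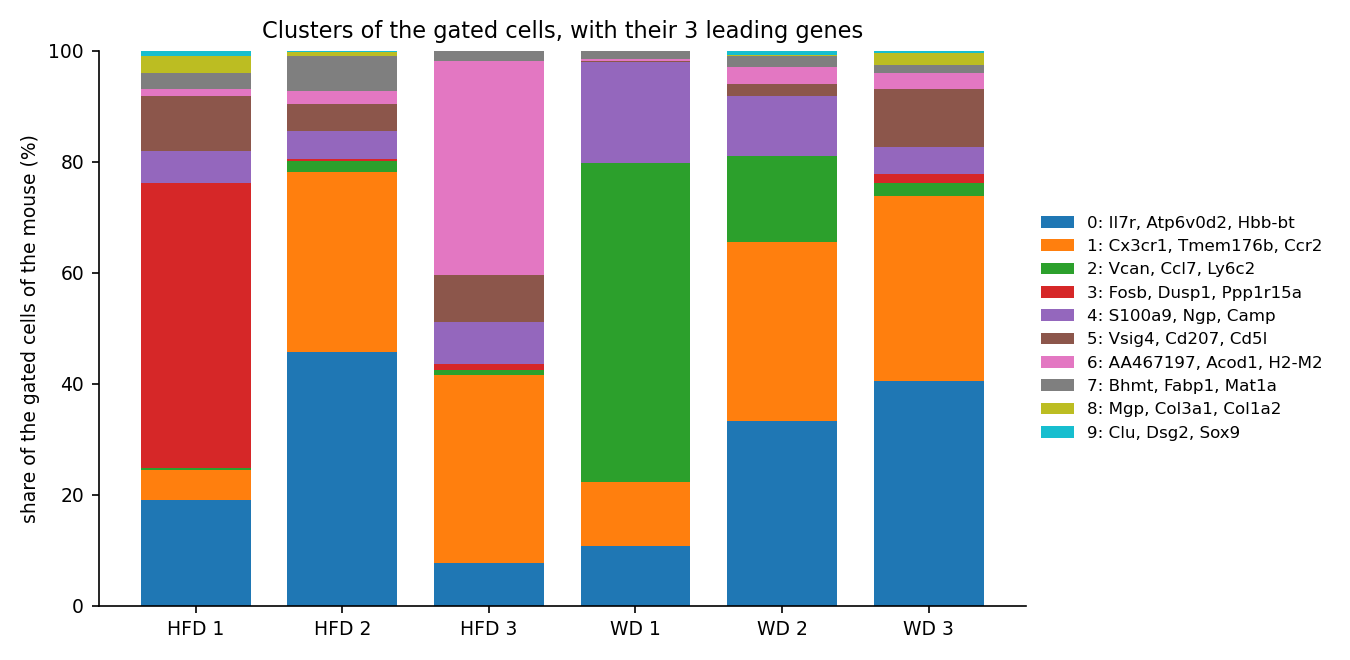
Composition of the gated cells of each NASH mouse in percent, stacked by cluster, with the 3 leading genes of each cluster. Cluster 3 fills 51.3% of HFD+F+CCl4 replicate 1, cluster 2 57.4% of WD+F+CCl4 replicate 1 and cluster 6 38.5% of HFD+F+CCl4 replicate 3.

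Clusters 4, 7, 8 and 9 each had at least 2 markers of hepatocytes, neutrophils, endothelial cells, stellate cells or bile duct cells among their 10 leading genes. This rule for leaving clusters out was set after the data were seen and did not count the other marker lists. By those, cluster 0 had Il7r of the T and NK cell list and Hbb-bt, Hba-a1, Hba-a2 and Pf4 of the red cell and platelet list among its 10 leading genes, and cluster 5 had the cycling genes Ccnb2 and Birc5, and both were kept. Pf4 had a UMI in 76.9% of the cells of cluster 0 and Il7r in 34.3%, but the haemoglobin genes in 3.64% to 4.90%. Cluster 4 (568 cells) had the neutrophil genes S100a9, Ngp, Camp and S100a8, with Siglech and Klrd1 also among its 10 leading genes. Cluster 7 (190 cells, median 2149 UMIs) had the hepatocyte genes Bhmt, Fabp1 and Mat1a. Cluster 8 (88 cells) had the collagen genes Col3a1 and Col1a2 with the endothelial gene Ptprb, and cluster 9 (29 cells, median 16154 UMIs) the bile duct genes Sox9 and Epcam. Some of these genes were in few cells as well. Ngp and Camp had a UMI in 5.11% and 3.17% of cluster 4, against 51.1% for S100a9. Bhmt had one in 12.6% of cluster 7. Col3a1 had one in 14.8% of cluster 8, against 86.4% for Ptprb, and Sox9 in 93.1% of cluster 9. Cluster 4 was 18.2% of the gated cells of WD+F+CCl4 replicate 1 and 10.9% of those of WD+F+CCl4 replicate 2, against 5.00% to 7.61% in the other 4 mice. Droplets that hold a pair of cells, and free RNA, can give such profiles, and their part was not tested. Together the 4 clusters were 875 cells, or 13.3%, and between 9.07% and 19.8% of a mouse. Without them 269 genes were higher and 670 lower than in Trem2- Gpnmb- cells, in place of 226 and 474. Only the gated cells were filtered in this way, and the Trem2- Gpnmb- cells kept any such droplets of their own. The part of this one-sided filter in the change of the counts was not tested.

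The NASH diets were compared within the gated cells on UMI counts summed per mouse, a contrast that the selection did not use. Of 12944 genes, 0 (0%) had an adjusted p under 0.05 (edgeR quasi-likelihood test, Benjamini-Hochberg), and the smallest adjusted p was 0.822. At an unadjusted p under 0.05 there were 693 genes (5.35%), 350 of them higher (2.7%) and 343 lower (2.65%) in WD+F+CCl4 mice. DESeq2 called 27 genes (0.209%), of which 24 were higher (0.185%) and 3 lower (0.0232%). In 796 genes (6.15%) all WD+F+CCl4 mice lay above all HFD+F+CCl4 mice, and in 592 (4.57%) below. Leaving out HFD+F+CCl4 replicate 1 also left 0 calls, as did leaving out clusters 4, 7, 8 and 9. Values below that did not pass the test are given as levels.

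The levels of the 3 required genes overlapped between the diets, in cells that were chosen for having them. Trem2 was at 854, 889 and 558 CPM in HFD+F+CCl4 and 635, 577 and 816 CPM in WD+F+CCl4 mice, Gpnmb at 2386, 1714 and 1272 CPM and at 1536, 906 and 1589 CPM, and Ms4a7 at 796, 579 and 694 CPM and at 435, 709.8 and 693 CPM. For Spp1 the log2 fold change was 0.80 ± 0.37 (SE, edgeR adjusted p = 0.822), with the highest value, 3171 CPM, in WD+F+CCl4 replicate 1 and the lowest, 718 CPM, in HFD+F+CCl4 replicate 3. C3ar1 lay between 359 and 644 CPM, and the groups overlapped.

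The 10 genes with the smallest p in edgeR were mostly of low abundance, and all 10 were among the 27 calls of DESeq2. Spon1, a secreted matrix protein, was at 7.38, 7.65 and 9.78 CPM in HFD+F+CCl4 mice and at 35.3, 26.5 and 21.9 CPM in WD+F+CCl4 mice (log2 fold change 1.76 ± 0.24, adjusted p = 0.822 in edgeR and 1.36e-05 in DESeq2). The groups did not overlap. Treml2, a receptor encoded in the gene cluster of Trem2, was at 23.4, 26.1 and 18.3 CPM and at 62.5, 53.4 and 40.8 CPM, again without overlap (1.19 ± 0.19). Ccl12, a ligand of Ccr2, was at 9.86, 8.11 and 16.7 CPM and at 32.0, 33.0 and 45.1 CPM. The lymphocyte chemokine Xcl1 stood at 7.19 ± 2.83 CPM in WD+F+CCl4 and 1.14 ± 0.32 CPM in HFD+F+CCl4 mice, and the immediate early factor Egr3 at 0.96 ± 0.26 CPM and 6.55 ± 3.31 CPM. Ngp and Camp, granule genes of neutrophils, differed by 4.84 ± 0.90 and 4.21 ± 0.79 on the log2 scale, and by 1.38 and 0.27 without clusters 4, 7, 8 and 9. Nme2, Rps26-ps1 and Gm17657, with 1.18 ± 0.17, 1.2 ± 0.18 and 4.36 ± 0.73, have near-identical copies between which reads may be split, and are uncertain.

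Sterol synthesis genes lay lower in WD+F+CCl4 mice as a list, though no member passed the test in edgeR or DESeq2. The list holds enzymes of the mevalonate and cholesterol pathway and other genes that the factor Srebf2 switches on when cells lack cholesterol. Of 24 members tested 22 had a negative log2 fold change, with a median of -0.83 against -0.01 over all genes. In 9 members, among them Cyp51, Fdft1, Hsd17b7, Idi1, Lss, Pmvk and Sc5d, every WD+F+CCl4 mouse was below every HFD+F+CCl4 mouse, against 4.57% of all genes, and in Ebp every one was above. Cyp51, which removes a methyl group from lanosterol, was at 12.8, 9.48 and 36.6 CPM in HFD+F+CCl4 and 5.48, 8.10 and 8.81 CPM in WD+F+CCl4 mice. Fdft1, which makes squalene, was at 10.8, 5.92 and 12.1 CPM and at 5.14, 4.16 and 4.20 CPM. Summed over the list the levels were 485, 327 and 619 CPM and 300.2, 348 and 337 CPM, so that HFD+F+CCl4 replicate 2 lay within the range of the WD+F+CCl4 mice. Without HFD+F+CCl4 replicate 3 the median was -0.46.

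Targets of LXR, the receptor that oxidised sterols activate, had a median of 0.13. With a mouse left out it ran from -0.08, without HFD+F+CCl4 replicate 3, to 0.25, without HFD+F+CCl4 replicate 1. In 3 of 15 members, Abcg1, Lpcat3 and Srebf1, against 6.15% of all genes, the WD+F+CCl4 mice were all above the HFD+F+CCl4 mice. Abcg1, an exporter of cholesterol, was at 242, 284 and 174 CPM and at 324, 317 and 329 CPM. Lpcat3, an enzyme of membrane phospholipids, was at 49.0, 51.4 and 45.1 CPM and at 65.3, 63.7 and 66.1 CPM. Srebf1 was at 28.3, 28.0 and 26.3 CPM and at 39.4, 46.2 and 36.9 CPM. Apoe and Abca1 overlapped between the diets, and their log2 fold changes were -0.56 ± 0.27 and 0.22 ± 0.25, with an adjusted p of 0.822 and 0.879 in edgeR.

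MHC class II genes, which present antigen to T cells, had negative log2 fold changes in 9 of 9 cases (median -0.96), and in 6, against 4.57% of all genes, every WD+F+CCl4 mouse was below every HFD+F+CCl4 mouse: Ciita, H2-Aa, H2-Ab1, H2-DMa, H2-DMb1 and H2-Eb1. H2-Aa was at 3703, 3375 and 7311 CPM in HFD+F+CCl4 mice and at 993, 2647 and 2833 CPM in WD+F+CCl4 mice. Ciita, the activator of these genes, was at 98.2, 83.9 and 139 CPM and at 26.1, 76.4 and 65.5 CPM. In both genes WD+F+CCl4 replicate 1 was lowest and HFD+F+CCl4 replicate 3 highest, and without HFD+F+CCl4 replicate 3 the median of the list was -0.53. Cluster 2, which is mostly WD+F+CCl4 replicate 1, had 451 CPM of H2-Aa and cluster 6, mostly HFD+F+CCl4 replicate 3, had 6897 CPM; the part of these clusters in the difference was not tested.

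**Figure D4:**
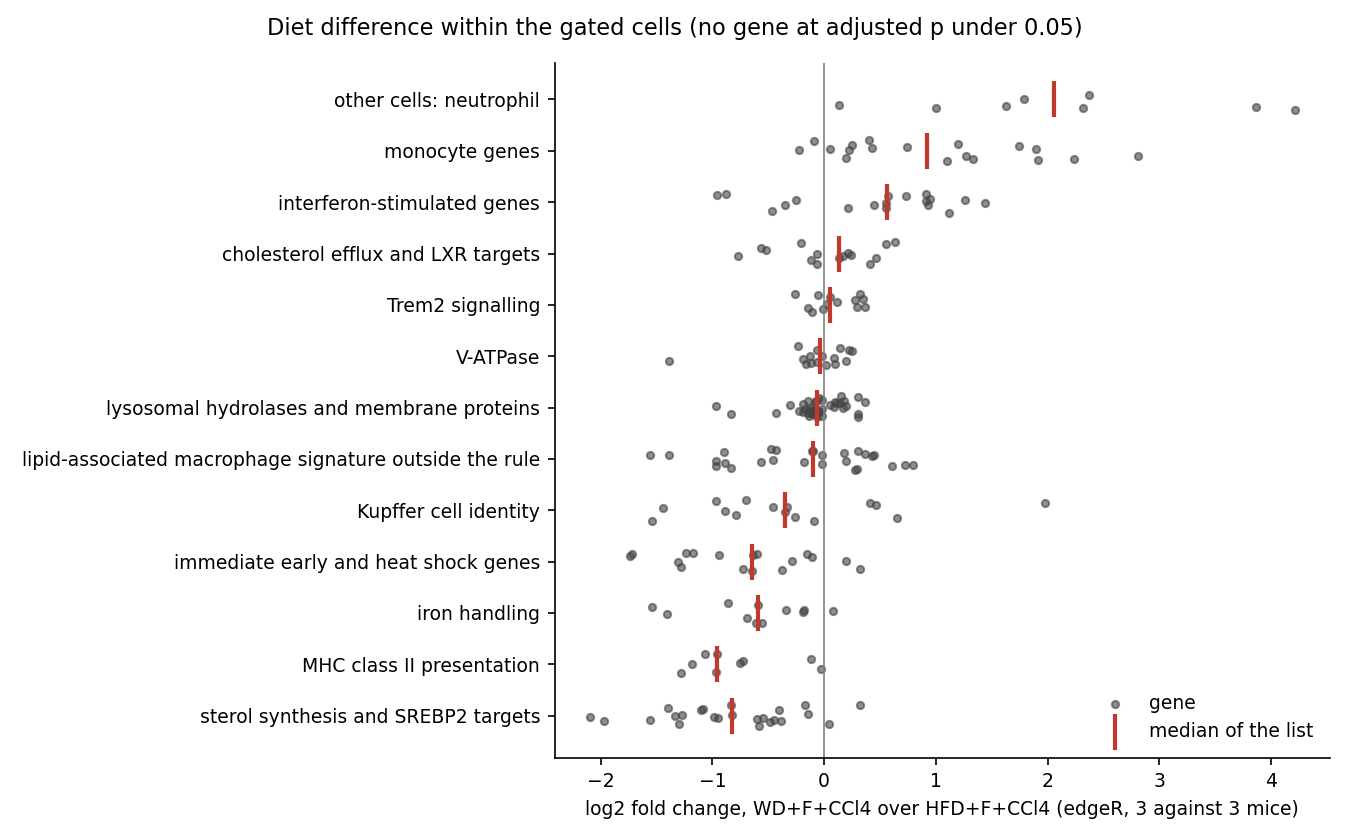
Log2 fold change of each gene (points), WD+F+CCl4 over HFD+F+CCl4, within the gated cells, by gene list, with the list median as a bar. Of the 13 lists drawn, medians run from 2.06 for neutrophil genes to -0.96 for MHC class II genes, and no single gene passed the adjusted test in edgeR; the other lists, among them stellate cell genes with a median of -3.92, are not drawn.

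Monocyte genes had positive log2 fold changes in 16 of 18 cases (median 0.92). Chil3, a chitinase-like secreted protein, was at 159, 360.4 and 157 CPM in HFD+F+CCl4 mice and at 2572, 1650.3 and 598 CPM in WD+F+CCl4 mice (log2 fold change 2.81 ± 0.57, adjusted p = 0.822 in edgeR and 0.0142 in DESeq2). Ly6c2 was at 21.2, 81.9 and 82.4 CPM and at 549.5, 249.7 and 94.9 CPM, and Ms4a4c was the third member without overlap, against 6.15% of all genes. WD+F+CCl4 replicate 3 lay close to the HFD+F+CCl4 mice, with a list sum of 4007 CPM against 2552.5 to 3928 CPM, while WD+F+CCl4 replicates 1 and 2 had 10412 and 8151 CPM. Cluster 2, led by Vcan, Ccl7 and Ly6c2, was 57.4% of the gated cells of WD+F+CCl4 replicate 1 and 15.4% of those of replicate 2, against at most 2.36% in the other mice, and its part in these values was not tested. Of 24 inflammatory cytokines and chemokines 15 had a negative log2 fold change (median -0.40, and from -0.86 to -0.21 when a mouse was left out). In 3 of them, Ccl2, Ccl7 and Ccl12, against 6.15% of all genes, the WD+F+CCl4 mice were all above the HFD+F+CCl4 mice. Ccl2 was at 20.5, 64.2 and 30.1 CPM and at 292, 158 and 114 CPM. In 1 of the 24, Cxcl14, the WD+F+CCl4 mice were all below, a share near the 4.57% of all genes. DESeq2 called Ccl2, Ccl7 and Ccl12, against 0.209% of all genes, and edgeR none of them. Interferon-stimulated genes had a median of 0.56, positive in 13 of 18, and of 0.26 without WD+F+CCl4 replicate 1. In 6 members, Ifi47, Ifit1, Ifit3, Irf7, Isg15 and Usp18, against 6.15% of all genes, the WD+F+CCl4 mice were all above the others. Irf7, a factor that drives this response, was at 172, 186 and 151 CPM and at 737, 435 and 223 CPM, with an adjusted p of 0.822 in edgeR and 0.0172 in DESeq2.

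For the genes of the lipid-associated state the medians lay near that of all genes. The median log2 fold change was -0.10 over 27 signature genes, -0.06 over 40 lysosomal genes, -0.04 over 16 V-ATPase subunits and 0.05 over 13 genes of Trem2 signalling. Among signature genes 2 of 27, Anxa2 and Lgals3, were above in every WD+F+CCl4 mouse, against 6.15% of all genes, and 2, Cd9 and Fabp5, below, against 4.57%, so that these shares were near the background. With a mouse left out, the median was -0.18 to 0.06 for signature genes and -0.12 to 0.08 for V-ATPase subunits. It was -0.11 to 3.3e-05 for lysosomal genes and -0.004 to 0.08 for Trem2 signalling. Leaving out 1 mouse also moved the medians of other lists. For complement genes the median was -0.05, and -0.32 to 0.14 with a mouse left out. Transcription factors had -0.22, and -0.34 to -0.13, and other Ms4a genes 0.36, and 0.22 to 0.51. Immediate early genes had -0.65, with -0.03 without HFD+F+CCl4 replicate 1 and -1.09 without HFD+F+CCl4 replicate 2. Iron genes had -0.60, and -0.25 without HFD+F+CCl4 replicate 1. For Kupffer identity genes the median was -0.35, but it became 0.32 when HFD+F+CCl4 replicate 1 was left out and -1.80 when WD+F+CCl4 replicate 3 was, and for matrix genes it was -0.29, but -0.02 without HFD+F+CCl4 replicate 3. Fth1, the ferritin heavy chain, was at 8428, 8219 and 14681 CPM in HFD+F+CCl4 mice and at 6529.6, 5814 and 7432 CPM in WD+F+CCl4 mice.

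Markers of other cells also differed in level among the mice. Of 8 neutrophil genes all had a positive log2 fold change (median 2.06), and their summed level was 424.5, 310.2 and 577 CPM in HFD+F+CCl4 and 2067, 2832 and 614 CPM in WD+F+CCl4 mice, with S100a9 most abundant at 503 ± 528 CPM. Without clusters 4, 7, 8 and 9 the sums were 237, 185 and 178 CPM and 502, 185 and 137 CPM, and the median was 0.27. The lists for sterol synthesis, class II, monocytes and interferon had medians of -0.77, -1.03, 0.85 and 0.68 without these clusters. Stellate cell genes had a median of -3.92, of -2.08 without these clusters and of -1.29 without HFD+F+CCl4 replicate 1, and summed to 329 CPM in HFD+F+CCl4 replicate 1 and to between 8.49 and 31.9 CPM in the other mice. Hepatocyte genes had a negative log2 fold change in 11 of 12 cases (median -0.66, and from -2.44 to -0.20 when a mouse was left out), with none called by edgeR or DESeq2. Led by Trf at 337 ± 193 CPM, they summed to 1357, 1627 and 339 CPM in HFD+F+CCl4 mice and to 310.4, 309 and 1197 CPM in WD+F+CCl4 mice, so that the groups overlapped. Without clusters 4, 7, 8 and 9 their median was -1.76, with 10 of 12 lower at an unadjusted p under 0.05 in edgeR, against 500 of all 12103 genes, and the sums were 1133, 899 and 356 CPM and 222, 264 and 448 CPM. B and plasma cell genes, led by Igkc at 49.8 CPM, had a negative log2 fold change in 4 of 5 cases (median -0.92, and -0.90 without these clusters). They summed to 214, 207 and 105 CPM in HFD+F+CCl4 mice and to 116, 100.4 and 119 CPM in WD+F+CCl4 mice. Without these clusters 3 of the 5 were lower at an unadjusted p under 0.05 in edgeR, against 500 of all 12103 genes. The part of hepatocyte and B cell RNA in the lists that lay lower in WD+F+CCl4 mice, such as sterol synthesis and class II, was not tested. Median log2 fold changes with all clusters and without the 4 were -0.43 and -0.76 for endothelial, -0.75 and -0.24 for bile duct, 0.31 and -0.34 for T and NK cell, -0.16 and -1.11 for dendritic cell, -0.89 and -0.54 for red cell and platelet and 0.05 and 0.05 for cycling genes. With all clusters and a mouse left out, the median ran from -4.51 to 1.09 for endothelial and from -1.70 to 0.92 for bile duct genes. For T and NK cell genes it ran from 0.11 to 0.52, and for dendritic cell genes from -0.52 to 0.26. Red cell and platelet genes ran from -2.50 to 0.59 and cycling genes from -1.10 to 0.31. Over the mice, summed levels of endothelial genes ranged from 38.6 to 246 CPM, bile duct genes from 5.92 to 142 CPM, T and NK cell genes from 51.5 to 105 CPM, dendritic cell genes from 23.8 to 61.9 CPM, red cell and platelet genes, led by Pf4, from 229 to 1667.5 CPM, and cycling genes from 209 to 313 CPM. Red cell and platelet genes were lowest in HFD+F+CCl4 replicate 1 and highest in HFD+F+CCl4 replicate 3.

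**Figure D5:**
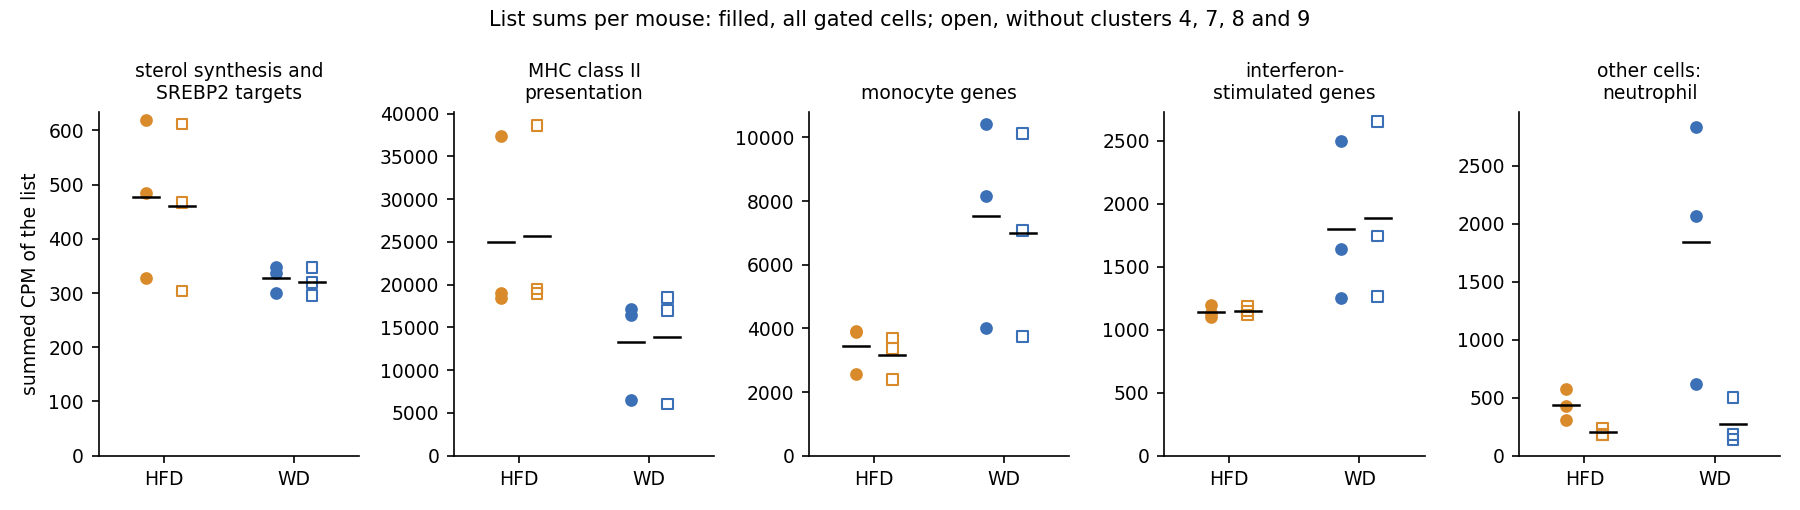
Summed CPM of 5 gene lists in gated cells, with a point per mouse (filled, all gated cells; open, without clusters 4, 7, 8 and 9) and a line at the mean of 3 mice. The neutrophil sums of WD+F+CCl4 replicates 1 and 2 fall from 2067 and 2832 CPM to 502 and 185 CPM without these clusters, and the monocyte sum of WD+F+CCl4 replicate 3, at 3748 CPM, is then just above the highest HFD+F+CCl4 mouse, at 3699.7 CPM.

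To ask whether a diet difference was particular to the gated cells, the interaction of diet and cell kind was tested against the Trem2- Gpnmb- cells of the same mice. Of 12072 genes, 0 passed an adjusted p under 0.05 in edgeR and in DESeq2, and 485 had an unadjusted p under 0.05 in edgeR. For Chil3 the interaction was -0.21 on the log2 scale, for Irf7 0.07, for Ccl2 0.93 and for H2-Aa -0.56 (edgeR adjusted p = 1 for each). Among other genes named above it was 2.94 for Xcl1, -0.86 for Apoe and -0.87 for Lyz2. Their unadjusted p in edgeR was 0.0020, 0.0073 and 0.0073, and they were picked after their values were seen. The absence of calls does not show that the diet difference was the same in both kinds. The count was 21 without WD+F+CCl4 replicate 3 and 47 with no filter beyond 1 count.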

How the data were processed

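Single-cell RNA-seq of whole liver was measured in 8 mice, 1 library each. The deposited file, made by the authors, holds raw UMI counts in 1 matrix of 55450 genes and 88581 barcodes, demultiplexed with bcl2fastq 2.20 and counted with Cell Ranger on GRCm38 (the version in the methods differs from that in the file header), not filtered for cell quality. A suffix on each barcode gave the mouse. No source read here states that free RNA or doublets were removed, and no doublet caller was run. Instead, cells with a UMI of 7 genes of other cell types, and the 5% of cells with the most UMIs, were left out as alternatives.

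UMI counts were summed per mouse and cell kind and scaled to CPM. Gated cells and other kinds were compared in log2(CPM + 1), paired by mouse, in genes of at least 10 CPM in either kind, with at least 20 cells of each kind a mouse. Lists were counted over members with at least 10 CPM in both kinds, a choice made after the data were seen. Diets were compared with edgeR 4.0.16 (quasi-likelihood, TMM, filterByExpr, Benjamini-Hochberg over all genes), and DESeq2 1.42.0 was the second tool. Both ran under R 4.3.3 beside limma 3.58.1. The interaction had the mouse as a block. Shares were compared with exact permutation tests over the 20 splits of 3 against 3 mice. Each mouse was 1 replicate. Intervals of shares are exact 95% binomial, and these and the limit of 3 cells cover counting error only. Leiden clusters of the gated cells (leidenalg 0.10.2 with igraph 0.11.9, resolution 0.5) came from 20 neighbours in 20 principal components of 2000 variable genes (scikit-learn 1.9.0) and carry no test. Python 3.11.15 with numpy 2.4.6, pandas 2.3.3, SciPy 1.17.1 and matplotlib 3.10.9 was used. Both count models were first tested on simulated data. There the edgeR diet test found few of the genes changed by 1 on the log2 scale. DESeq2 found more of them but made more false calls, and edgeR made some too. The interaction test missed most of the genes changed by 1 with either tool. A count of 0 therefore does not show that the diets were alike, or that their difference was the same in both kinds of cell.

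The cells, the gene lists and the tests were chosen with earlier results of these data known. Genes to name were drawn from those of the rule with Spp1 and C3ar1, the 10 largest positive and 6 largest negative differences of each description, the 10 smallest p of the diet comparison, the 4 most abundant members of each list and the 20 most abundant genes. Other list members and cluster genes were named after their values were seen. RefSeq promoters were matched by gene symbol. Some members of the sterol list are not reported here by name.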

Additional observations from a re-analysis of the deposited data

How the results depend on the processing

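Between the diets, the count of genes was 0 in the main test and in all alternatives but 3. It was 27 with DESeq2, 39 with no filter beyond 1 count (30 higher and 9 lower in WD+F+CCl4 mice) and 1, Spon1, with each cell thinned to 3000 UMIs. Leaving out each mouse gave 0 each time, with 309 to 1249 genes at an unadjusted p under 0.05. With the replicate number as a block the count was also 0, with 507 genes at an unadjusted p under 0.05, but same-numbered mice deviated in opposite directions (r = -0.42, -0.13 and -0.43), so that the numbers do not pair the mice. The interaction count, which has the mouse as a block, was 47 with no filter beyond 1 count (30 and 17), and ranged from 0 to 21 when a mouse was left out, with 2 genes (Apoa1 and Ltf) when WD+F+CCl4 replicate 1 and 21 when WD+F+CCl4 replicate 3 was left out. The cause of these differences was not tested.

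The share of gated cells among kept cells differed between the diets by 0.921 percentage points without cells with a UMI of another cell type (exact permutation test, p = 0.8), against -2.24, and by -5.55 to -0.00564 when a mouse was left out. Among Ms4a7+ cells the difference of 0.12 points turned to -0.714 with at least 2 UMIs of Trem2 and of Gpnmb, -1.86 with more than 1000 genes, -0.120 under 10% mitochondrial UMIs and -8.14 with cells thinned to 3000 UMIs, and ranged from -8.83 (without HFD+F+CCl4 replicate 3) to 7.84 when a mouse was left out, with -8.49 without WD+F+CCl4 replicate 1. The exact p was 0.2 for the -5.55 points without HFD+F+CCl4 replicate 3, the smallest that 3 against 2 mice can give, and above the smallest in the other settings. The 6560 gated cells became 2018 without cells with a UMI of another cell type and 4021 with cells thinned to 3000 UMIs. In the thinned setting each cell has fewer UMIs in which to find 3 genes. Cells under 3000 UMIs were also dropped there, from the gated cells and from the cells of which they are a share. Between 21 (HFD+F+CCl4 replicate 3) and 146 (HFD+F+CCl4 replicate 1) gated cells a mouse were under 3000 UMIs.

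In place of the 160 genes that differed from Cxcl9 Cxcl10 macrophages, the count was 252 (46 higher, 206 lower) without clusters 4, 7, 8 and 9. That alternative was chosen after the data were seen and filtered the gated cells only. The count was 186 (80 and 106) in cells of 4000 to 12000 UMIs and 110 (23 and 87) with 5 CPM added before the logarithm. Camp was at -0.30 on the log2 scale with no requirement of Ms4a7, against 4.21. Under the alternatives, 194 values of the named diet genes kept their direction and their side of the threshold and 21 passed the threshold that they had missed.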
